A study of Mus musculus with 2 samples.

Results

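The genes described here encode the constitutive proteasome, with its assembly chaperones, its activators and its inhibitor. Their transcripts were measured in the Ecrg4-binding clone BaF/3 (#BEB1) and in the parental Ba/F3 cells, with 1 array for each cell line. Members were all genes on the array whose symbol is Psma, Psmb, Psmc, Psmd, Psmf or Psmg with a number, together with Psme3 and Psme4. The inducible catalytic subunits Psmb8, Psmb9 and Psmb10 were left out of the members. This rule gave 44 genes with 54 probes, out of 31826 gene or transcript names and 39422 probes without an outlier mark. The rule uses symbols and no measured value, although the gene group was picked with earlier results of these data known.

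Ba/F3 is a mouse pro-B cell line that depends on interleukin-3. BaF/3 (#BEB1) was derived from it by infection with a retroviral cDNA library made from CG4 cells and repeated sorting for cells that bound Ecrg4 fused to Fc. It is 1 clone, so effects of the cDNA library, of the sorting and of picking a single clone cannot be told apart. No age, sex or treatment separates the groups, and both lines share the interleukin-3-dependent Ba/F3 background. With 1 array for each line, no difference has a replicate check, and folds and counts below are sizes without a test.

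The deposited files disagree on which array belongs to which line. The A array is BaF/3 (#BEB1) in the authors' table of normalised values, but its scanner output carries the label of the parental cells. The B array is parental Ba/F3 in the table, and its scanner output carries the label of BaF/3 (#BEB1). Over 39422 probes, the table's BaF/3 (#BEB1) column had r = 0.999996 with the A array and 0.982341 with the B array, and its parental column had r = 0.982340 with the A array and 0.999998 with the B array. Differences are given throughout as the A array minus the B array, on a log2 scale. A positive value means higher in BaF/3 (#BEB1) by the table, and higher in the parental cells by the scanner output. Olr1, which encodes the scavenger receptor LOX-1 that the study cloned as an Ecrg4-binding protein, had 12962 signal units on the A array and 289 on the B array. After scaling it was 32.1-fold higher on the A array. The study describes Olr1 as higher in BaF/3 (#BEB1), which is the direction of the table's assignment. That direction is the likely one, since BaF/3 (#BEB1) was selected for binding Ecrg4 and LOX-1 cDNA was recovered through a library of its mRNA. The labels alone do not settle it, so the median difference of the proteasome members is 0.27 by the table and −0.27 with the sign turned.

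The proteasome is the main protease of the cytosol and nucleus and degrades proteins tagged with ubiquitin chains. Its 20S core is a barrel of stacked rings, with outer alpha rings that gate entry and inner beta rings that hold the proteolytic sites. A 19S regulatory particle caps the core. Its base contains a ring of ATPases that unfolds the substrate and threads it into the core, and its lid removes ubiquitin. Lymphoid cells and cells exposed to interferon exchange the catalytic beta subunits for inducible ones, forming the immunoproteasome, which favours peptides suited to MHC class I.

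The arrays were of similar quality. Signals had a 75th percentile of 1506 on the A array and 1080 on the B array, and each signal was divided by the percentile of its own array before log2 was taken. The share of probes well above background was 49.4% on the A array and 49.9% on the B array, and 0 spots were saturated. The scanner software gives an error for each spot on each array. Combined over the 2 arrays, it gave the difference of each measured member spot an error of 0.20 to 0.24 on the log2 scale. Among repeat spots the difference between the arrays had an SD of 0.046, over 211 probes printed 10 times. Both cover the array only and not a new culture. Of the markers used to check the cell type, all 4 haematopoietic and interleukin-3 receptor genes were measured on both arrays, but only 2 of 7 B-lineage genes were (Cd79b and Vpreb1). The other 5, Cd79a, Pax5, Ebf1, Rag1 and Blnk, did not lie well above background on the A or the B array. Of markers of other cells, 3 of 5 macrophage, 3 of 5 T-cell, 2 of 6 mast-cell and 2 of 4 erythroid genes were measured on both. Several of these markers differed more than any proteasome gene. The mast-cell genes Cpa3 and Hdc differed by −5.44 and 1.67, and Fcer1a lay above background on the B array only, where it was at least 46.6-fold higher. The erythroid genes Klf1 and Epor differed by −2.31 and −2.06, the interleukin-3 receptor chains Csf2rb and Csf2rb2 by −1.86 and −1.60, and Cd79b by −2.30. The other 2 haematopoietic and interleukin-3 receptor genes went the other way, the receptor chain Il3ra by 0.40 and Ptprc by 0.75. The part of these markers in the proteasome values was not tested.

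The proteasome genes were strongly detected. Of the 44 members, 43 were well above background on both arrays, none on 1 array only, and Psmb11 on neither. Member signals ran from 116 to 144320 on the A array and from 61.5 to 95753 on the B array. Of the 43, 39 (90.7%) lay above the 75th percentile on both arrays, against 47.5% of all 14832 genes measured on both. The plot of levels shows the values of each gene.

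**Figure D1:**
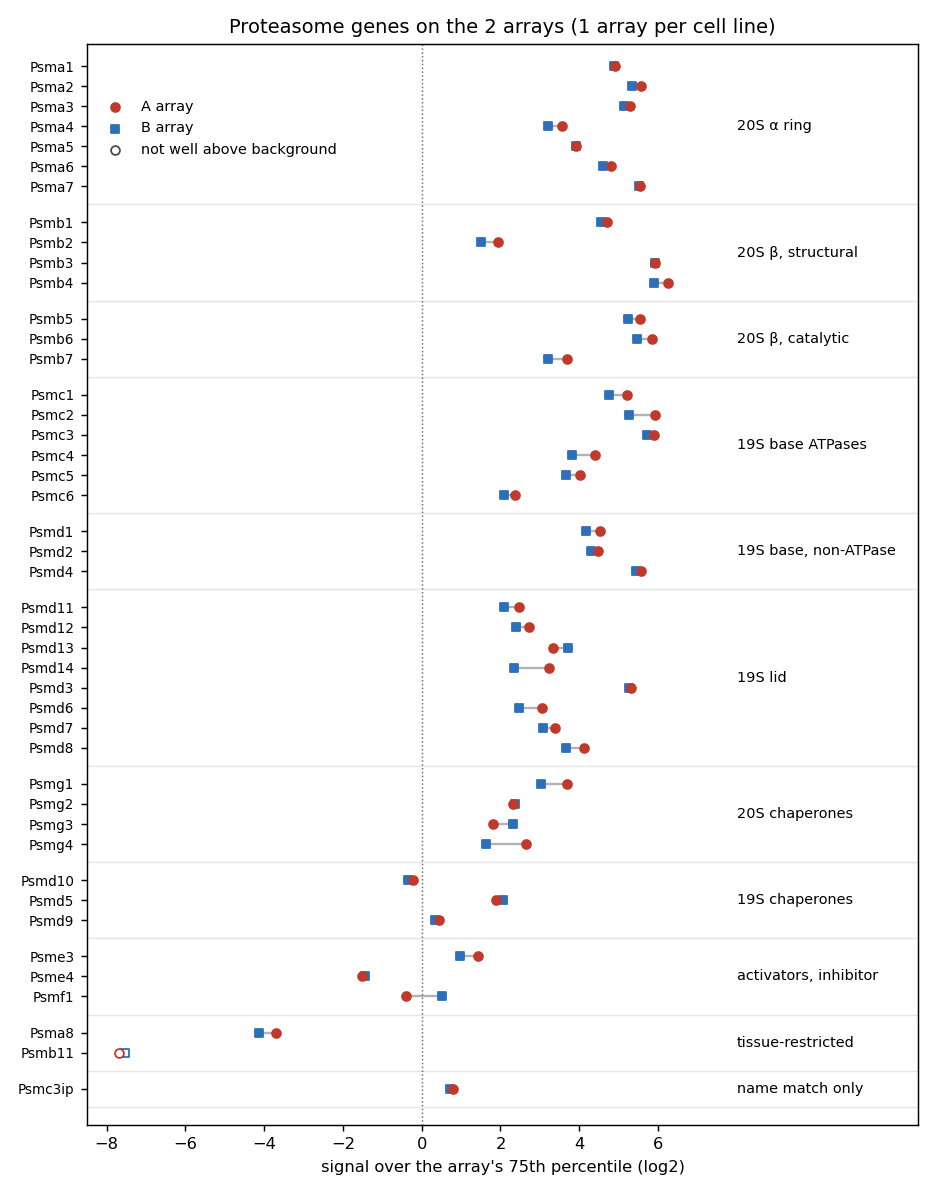
Level of each proteasome gene on the A array (red circles) and the B array (blue squares), as log2 of the signal over the 75th percentile of its array, which is the dotted line at 0. Each point is 1 array and there are no error bars; levels are to be compared within a gene only. Most red circles lie a little to the right of their blue squares, with Psmg4 (1.03) and Psmd14 (0.90) furthest apart, while Psmf1 lies the other way (−0.93).

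Most members were slightly higher on the A array. The difference was above 0 for 36 of 43 members (83.7%) and below 0 for 7, whereas it was above 0 for 48.6% of all measured genes. The median difference of the members was 0.27, with an SD of 0.35 between genes and a range of −0.93 to 1.03. Over all measured genes the median was −0.02 and the SD 0.69. In bulk RNA, more transcript in each cell and more cells with the transcript cannot be told apart.

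The shift was broad but small. At least 1.5-fold apart were 4 members on the A array side (9.30%), against 12.5% of all measured genes, and 1 member on the B array side (2.33%), against 17.6%. At least 2-fold apart were 1 member toward the A array, against 3.84% of all genes, and 0 toward the B array, against 7.31%. These shares depended on the scaling. Scaled to the array median, 48.8% of members and 27.8% of all genes passed 1.5-fold toward the A array, and in the authors' table the shares were 14.0% and 13.6%. Set against the combined error of the 2 arrays for the same gene, 25 members differed by more than the error toward the A array, 3 differed by more toward the B array, and 15 differed by less. That is 58.1% of members past the error toward the A array and 6.98% toward the B array, against 34.2% and 36.5% of all measured genes. The error covers array noise only, and for member spots it was wider than the SD of 0.046 among repeat spots. The count takes a smaller error for a gene with several probes. Psmc3 is thus counted toward the A array with 0.18, although the error of each of its spots was 0.20.

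Because proteasome transcripts are bright, they were also set beside the 7042 genes above the 75th percentile on both arrays. Among these bright genes 55.5% had a difference above 0, 11.8% were at least 1.5-fold higher on the A array, 9.95% were at least 1.5-fold higher on the B array, and the median was 0.07 with an SD of 0.52. The 39 bright members had 34 differences above 0, 4 at least 1.5-fold higher on the A array and 0 on the B array, and a median of 0.30 with an SD of 0.30. Across the 43 members the level and the difference had r = 0.14, and across all measured genes also r = 0.14. Genes are not independent replicates, and these correlations share the same pair of arrays.

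**Figure D2:**
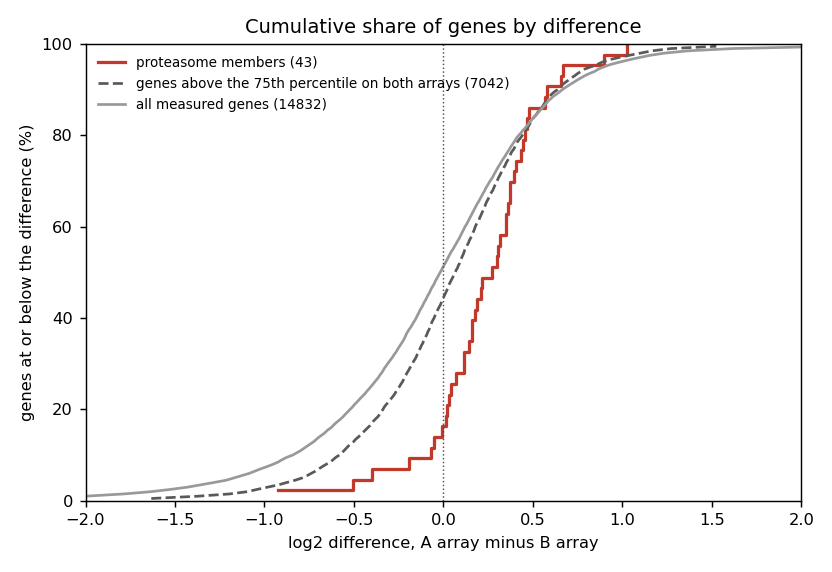
Cumulative share of genes (%) at or below each log2 difference, A minus B, for the 43 measured proteasome members (red), the 7042 genes above the 75th percentile on both arrays (dashed) and all 14832 measured genes (grey). The red curve reaches its middle at 0.27, right of the bright genes (0.07) and all genes (−0.02), but has no long tail to the right.

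The absolute size of the shift depended on the scaling. Dividing an array by a single factor moves members and all genes alike, so it cannot change the excess over all genes. That excess was therefore 0.29 with each percentile or median scaling. Only other alternatives, such as quantile normalization, normexp, the filters and the rule over probes, could change it. When each array was divided by its median, all genes moved by 0.29 toward the A array, and the members had a median of 0.56 against 0.27 for all genes. With that scaling 93.0% of members and 68.9% of all genes lay above 0. With the 75th percentile taken over spots well above background, 72.1% of members and 42.9% of all genes did. The member median minus the median of all genes ranged from 0.17 with quantile normalization to 0.40 without a filter on dim probes. For 34 members the sign was the same under all 12 alternatives, with 31 higher on the A array and 3 (Psmd13, Psmg3 and Psmf1) higher on the B array. For the other 9 it changed with the scaling, and these genes differed by at most 0.19 as reported.

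**Figure D3:**
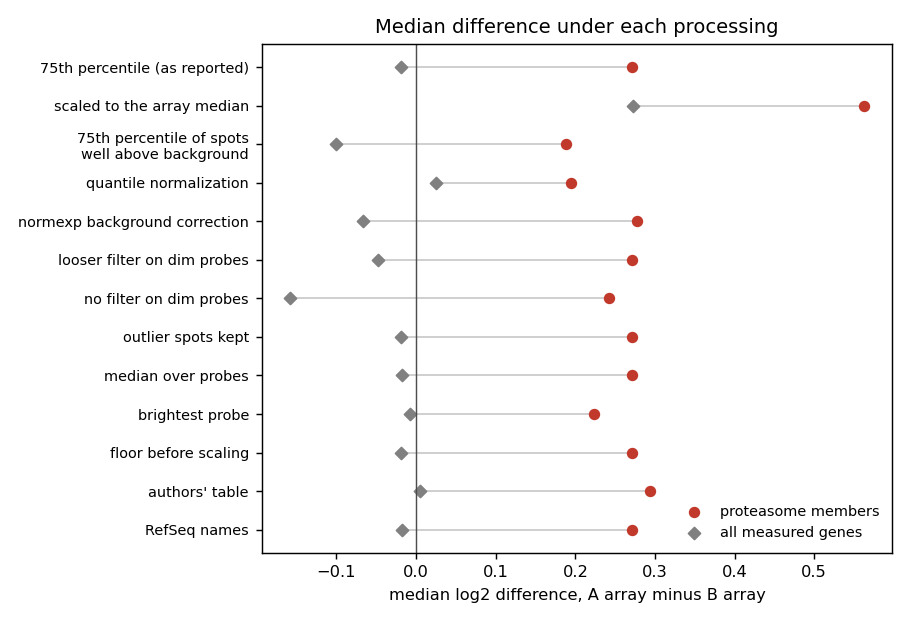
Median log2 difference, A minus B, of the proteasome members (red circles) and of all measured genes (grey diamonds) under each processing of the same 2 arrays, with no error bars. Both medians shift with the scaling, to 0.56 and 0.27 when scaled to the array median. The red circle lies right of the grey diamond in every row. Rows that differ only by a factor for a whole array have the same gap by construction.

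Within the 26S particle the shift was most even. Of its 31 subunits among the members 29 were above 0, with a median of 0.31 and an SD of 0.24. The subunits Adrm1 and Shfm1, whose symbols the rule does not take, are not counted here. The 14 genes of the 20S core had a median of 0.21 with 13 above 0. The 17 member genes of the 19S particle had a median of 0.35 with 16 above 0. The 12 measured members outside the particle were more scattered, with a median of 0.09, an SD of 0.52 and 7 above 0. The difference between these groups was not tested.

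**Figure D4:**
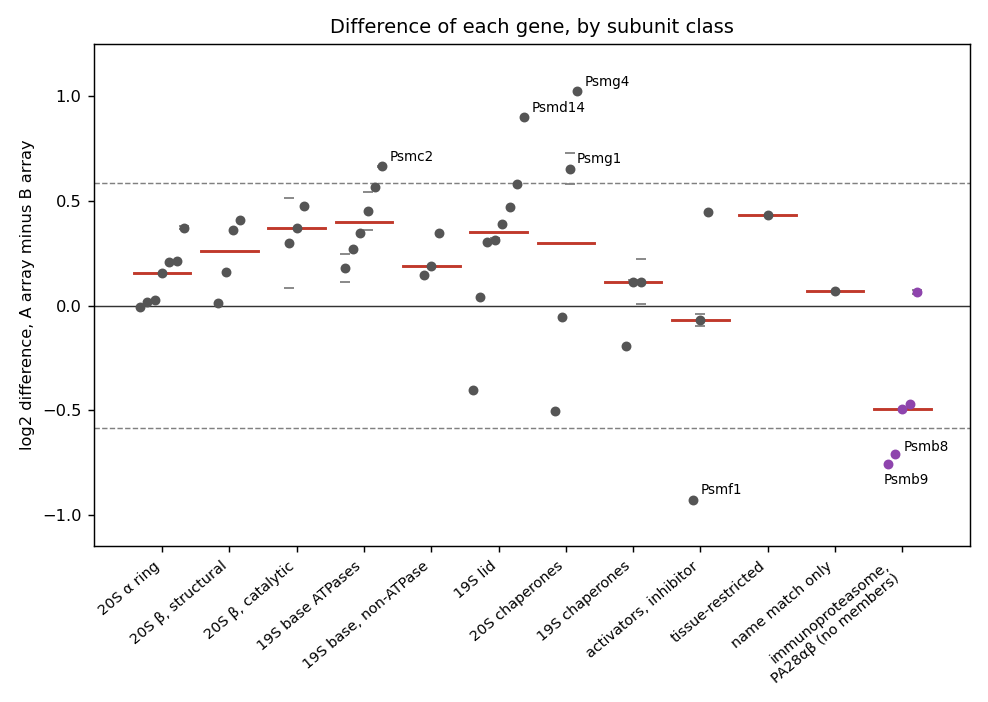
Log2 difference, A minus B, of each measured gene by subunit class, with the 5 genes of the immunoproteasome and PA28αβ at the right in purple. Points are genes, short grey dashes the separate probes of a gene with several, red lines class medians, and dashed lines 1.5-fold. Core and 19S classes have medians from 0.16 to 0.40, while the median of the immunoproteasome and PA28αβ genes is −0.50.

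The alpha ring, whose N-terminal tails close the entry pore of the core, had the smallest shift in the particle, with a median of 0.16 over 7 genes. Psma4 had the largest difference of the ring, 0.37, and its 2 probes gave 0.38 and 0.36. Psma2 (0.21), Psma6 (0.21) and Psma3 (0.16) followed, with differences close to the error of the array. Psma7 (0.03), Psma1 (0.02) and Psma5 (−0.01) were within 0.03 of equality, and their sign changed with the scaling.

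The structural beta subunits, which complete the inner rings without a proteolytic site, had a median of 0.26. Psmb2 differed by 0.41 and Psmb4 by 0.36. Psmb1 differed by 0.16 and Psmb3 by 0.01, and the sign of Psmb3 depended on the scaling.

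All 3 constitutive catalytic subunits were higher on the A array, with a median of 0.37. Psmb6, the beta1 subunit that cleaves after acidic residues, had 86703 signal units on the A array and 48026 on the B array, a scaled difference of 0.37. Psmb7, the beta2 subunit with trypsin-like activity, had 19450 on the A array and 10035 on the B array, a difference of 0.48. Psmb5, the beta5 subunit with chymotrypsin-like activity and the main target of the drug bortezomib, was measured by 2 probes. Its brighter probe had 140456 on the A array and 94908 on the B array (0.09), and its dimmer probe 35245 on the A array and 17696 on the B array (0.51). The gene value of 0.30 is the mean of the 2, and the spread between them, 0.43, was the widest among the 10 members with several probes. Among those 10 the median spread was 0.10, against 0.27 over 3139 genes. The first 30 of the 60 bases of each Psmb5 probe are given to show that they read different places in the transcript. They lie on chromosome 14, minus strand (mm9), at chr14:55232957-55233016 for the brighter and chr14:55233161-55233220 for the dimmer, and have no run in common at their ends.
Psmb5 brighter probe: gcggttgtctgcatctctaggtgggtctcc
Psmb5 dimmer probe: tactcctatgacctgaaagtggaggaggcc

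The ATPases of the 19S base, which unfold substrates and open the core, had a median of 0.40. This was the highest of the classes of the 26S particle as reported, but with quantile normalization the catalytic subunits were higher (0.34, against 0.33), and with the brightest probes the catalytic subunits (0.37) and the lid (0.356) were above the ATPases (0.355). All 6 were above 0, with a range of 0.18 to 0.67. Psmc2 (Rpt1) had 84907 and 97507 signal units on the A array for its 2 probes, against 38369 and 44170 on the B array. These differences of 0.67 and 0.66 made it 1.59-fold higher on the A array, just short of 1.5-fold (0.58) with the percentile over spots well above background. The probes share a run of 50 bases, in capitals in the stretches below, so they are not independent measurements.
Psmc2 first probe: ACTTCCTGTGCTTTTGTAACTTGTTGCCAC
Psmc2 second probe: gagtgaaagaACTTCCTGTGCTTTTGTAAC

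Psmc4 (Rpt3) followed with 31626 on the A array and 15295 on the B array, a difference of 0.57, just under 1.5-fold. Psmc1 (Rpt2) differed by 0.45, with probes at 0.54 and 0.36. Psmc5 (Rpt6) differed by 0.35, Psmc6 (Rpt4) by 0.27 and Psmc3 (Rpt5) by 0.18. Of the non-ATPase genes of the base, the scaffold subunits Psmd1 (Rpn2) and Psmd2 (Rpn1) differed by 0.35 and 0.19, and Psmd4 (Rpn10), a receptor for ubiquitin chains, by 0.14.

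The lid held the most divergent subunits. Psmd14 (Rpn11) is the metalloprotease that cuts ubiquitin chains from the substrate as it is degraded. It had 14264 signal units on the A array and 5485 on the B array, so it was 1.87-fold higher on the A array (0.90). Psmd6 (Rpn7), a scaffold subunit of the lid, had 12577 on the A array and 6040 on the B array (0.58), the largest difference short of 1.5-fold. Psmd8 (Rpn12) differed by 0.47, Psmd11 (Rpn6) by 0.39, Psmd12 (Rpn5) by 0.32, Psmd7 (Rpn8, the partner of Psmd14) by 0.31 and Psmd3 (Rpn3) by 0.04. The 2 probes of Psmd12 had very different signals, 41147 and 2366 on the A array against 23636 and 1369 on the B array, yet gave the same difference to within 0.01 (0.32 and 0.31). Psmd13 (Rpn9) went the other way. Its signals were 15073 on the A array and 14279 on the B array, which after scaling is 1.32-fold higher on the B array (−0.40). The sign of Psmd13 held under every alternative, and Psmd13 and Psma5 were the only 26S subunits among the members below 0 as reported.

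The chaperones that build the 20S core differed in both directions. The alpha ring is assembled on a pair of heterodimers, Psmg1 with Psmg2 and Psmg3 with Psmg4. Psmg4 (PAC4) had 9435 signal units on the A array and 3325 on the B array, 2.04-fold higher on the A array (1.03) and the largest difference of any member. Its partner Psmg3 (PAC3) had 5324 on the A array and 5421 on the B array, which after scaling was 1.42-fold higher on the B array (−0.51). Psmg1 (PAC1) was 1.57-fold higher on the A array (0.65). Its probes had 38435 and 9837 units on the A array, against 18411 and 4265 on the B array, with differences of 0.58 and 0.73. Its partner Psmg2 (PAC2) had 7545 on the A array and 5613 on the B array, a difference of −0.05 whose sign changed with the scaling. In each heterodimer 1 transcript was thus at least 1.5-fold higher on the A array, and its partner was below 0 as reported. For Psmg1 this fold was not reached with quantile normalization (0.58), with the percentile over spots well above background (0.57) or with its brightest probe (0.58).

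Chaperones of the 19S base differed little. Psmd10 (gankyrin) differed by 0.11, with probes at 0.01 and 0.22, and Psmd9 (p27) by 0.11, with both its probes near this value. Psmd5 (S5b) had 5525 on the A array and 4529 on the B array, a difference of −0.19 that was positive (0.10) when the arrays were scaled to their medians.

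The alternative caps of the core and its inhibitor were split. Psme3 (PA28γ), a nuclear activator that works without ubiquitin, had 4045 on the A array and 2129 on the B array, a difference of 0.45. Psme4 (PA200), which promotes degradation of acetylated histones, had 1018 and 270 on the A array for its 2 probes, against 783 and 199 on the B array, with differences of −0.10 and −0.04. Psmf1 (PI31), named as an inhibitor of the core, had 1136 on the A array and 1549 on the B array. It was 1.90-fold higher on the B array (−0.93), the lowest of all 43 members, and it lay at percentile 8.47 of all measured genes, while Psmg4 lay at 96.5. The median of these 3 genes, −0.07, was positive when scaled to the array median (0.22) or by quantiles (0.029).

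The probes behind the 3 members that were furthest apart are shown by their first 30 of 60 bases, since each of these genes rests on 1 probe and 1 spot on each array. In mm9 they lie at chr13:34269918-34269977 for Psmg4 and chr2:61599058-61599117 for Psmd14, both on the plus strand, and at chr2:151555353-151555412, minus strand, for Psmf1.
Psmg4 probe: ctcgtagaaaacaggattaaggaagaaatg
Psmd14 probe: gcctatggaagttatgggtctaatgcttgg
Psmf1 probe: gacctataagaacagtgaggagcttcggtc

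The remaining 3 members are not part of the constitutive particle in most tissues. Psma8, the testis variant of an alpha subunit, gave 116 units on the A array and 61.5 on the B array, dim but well above background on both, with a difference of 0.43. This difference was 0.21 with normexp background correction, 0.68 with quantile normalization and 0.72 when scaled to the array median, the last 2 past 1.5-fold. Psmb11, the beta5 variant of the thymic cortex, gave 7.24 on the A array and 5.81 on the B array, not well above background on either, so it has no difference. Psmc3ip carries a matching symbol but encodes a meiotic recombination factor, and its difference of 0.07 became −0.013 when the percentile was taken over spots well above background.

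The inducible counterparts of the catalytic subunits lay on the other side of 0. Psmb9, the inducible beta1 subunit, had 18207 units on the A array and 22091 on the B array, a scaled difference of −0.76. Psmb8, the inducible beta5 subunit, had 19249 on the A array and 22612 on the B array (−0.71). Psmb10, the inducible beta2 subunit, had 30393 on the A array and 30172 on the B array (−0.47). Psme1, the alpha chain of the interferon-inducible activator PA28, had a difference of −0.50, with its 10 spots between −0.53 and −0.45. Its partner Psme2 differed by 0.06, with a sign that changed with the scaling. The median of these 5 genes was −0.50, with 2 at least 1.5-fold higher on the B array (against 17.6% of all genes) and 0 on the A array. Scaled to the array median, the median was −0.20, Psmb8 (−0.42) and Psmb9 (−0.47) no longer reached 1.5-fold, and Psmb10 was −0.18.

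The ratio of constitutive to inducible subunit needs no scaling between arrays, because any factor for a whole array cancels. This ratio was 2.19-fold higher on the A array for beta1 (Psmb6 over Psmb9, 1.13 on the log2 scale), 1.92-fold for beta2 (Psmb7 over Psmb10, 0.94) and 2.02-fold for beta5 (Psmb5 over Psmb8, 1.01). For all 3 proteolytic sites the transcript ratio therefore differed in the same direction and by about the same amount. Subunit proteins were not measured. Over all alternatives, quantile and normexp included, the pairs stayed between 0.94 and 1.20 for beta1 and beta2, and between 0.80 and 1.07 for beta5, whose lowest value came from the brighter Psmb5 probe alone. With the sign turned, the constitutive to inducible ratio is lower in BaF/3 (#BEB1) by the same factors. This ratio shows unequal change and does not say which of the partners changed.

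Other factors bound to the proteasome differed in both directions. Of 12 genes named otherwise, 7 were above 0, the median was 0.07 and the range −0.30 to 0.67, and no test compared them with the members. Usp14, a deubiquitinase on the base, differed by 0.65 and Akirin2, which brings proteasomes into the nucleus, by 0.67. These were the 2 that reached 1.5-fold (16.7%, against 12.5% of all genes toward the A array). Usp14 was just under it with normexp (0.57) and with the percentile over spots well above background (0.57). Chosen after their values were seen, the subunits Adrm1 (Rpn13, a ubiquitin receptor) and Shfm1 (Sem1, a small lid subunit) differed by 0.51 and −0.16. The 20S maturation factor Pomp, chosen likewise, differed by −0.10.

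Upstream, ubiquitin genes and E1 enzymes had a median of 0.06 over 8 genes. Uba3, part of the E1 for NEDD8, was the 1 gene at least 1.5-fold apart (0.64), which is 12.5%, against 12.5% of all genes toward the A array. Uba3 was dim, and its difference was 0.23 with normexp and 0.56 with the percentile over spots well above background, both short of 1.5-fold. Shuttle factors and the VCP segregase system, which deliver ubiquitinated substrates, were listed together with the aminopeptidase Npepps (0.18), which is neither. These 11 genes had a median of 0.28, with 9 above 0. The A array had the higher signal by at least 1.5-fold for 4 of them (36.4%, against 12.5% of all genes) and the B array for 0 (against 17.6%). The 4 were Ubqln1 (1.37), Faf2 (0.97), Rad23b (0.69) and Faf1 (0.65). Rad23b was short of 1.5-fold by its brightest probe alone (0.45), and Faf1 with normexp (0.40) and with the percentile over spots well above background (0.57).

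Regulators of proteasome gene expression had a median of 0.28 over 10 genes, with 7 above 0 and a range of −0.71 to 0.91. The A array was higher by at least 1.5-fold for 4, against 12.5% of all genes, and the B array for 1, against 17.6%. Nfe2l1 encodes the factor that raises proteasome transcription when the proteasome is inhibited. Chosen after its value was seen, it differed by 0.65 (0.57 with the percentile over spots well above background). Nfe2l2, its relative in the oxidative stress response, differed by 0.72. Maff, a small Maf partner of both, differed by 0.91, but the other small Mafs listed, Mafg and Mafk, by 0.16 and −0.50. Nfya, a subunit of the CCAAT-binding factor NF-Y, differed by 0.70, and its partners Nfyb and Nfyc by 0.39 and 0.16. Keap1, the adaptor that sends the Nfe2l2 protein to degradation, was the 1 regulator at least 1.5-fold higher on the B array (−0.71, or −0.42 scaled to the array median).

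Complexes of related architecture served as a comparison. The COP9 signalosome, a paralogue of the lid, had a median of 0.03 over 9 genes and 0 at least 1.5-fold apart (against 12.5% of all genes toward the A array and 17.6% toward the B array). The translation factor eIF3, which shares domains with both, had a median of 0.19 over 13 genes. Eif3e (1.09) and Eif3j (0.70) were at least 1.5-fold higher on the A array (15.4%, against 12.5% of all genes). The cytosolic chaperonin CCT had a median of 0.33 over 8 genes, 6 of them above 0, so a median of this size was not particular to the proteasome.

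Promoters of the members were searched for the antioxidant response element bound by Nfe2l1 and Nfe2l2 with small Maf proteins, written TGACNNNGC, and for the CCAAT box bound by NF-Y, on both strands. RefSeq (GRCm38.p6) gave 38 promoters for 36 of the 44 members, each from 250 bases before the start to 50 after. TGACNNNGC was found in 6 of them (15.8%), against 12.4% of all 32851 promoters. CCAAT was found in 14 (36.8%), against 37.4%. Neither share stood out from the background of promoters of the same length, and no member promoter held both. The 6 genes with TGACNNNGC were Psmb5, Psmb6, Psmc6, Psmd9, Psmd12 and Psme4. Their median difference was 0.29, against 0.21 for the 29 measured genes without it, and members with CCAAT had 0.16 over 13 genes, against 0.33 over 22 without it. A match is a description of letters and not of binding.

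Sequences upstream of the start are shown for the 3 matching promoters in which the match lies within the last 120 bases before it, 2 of them of catalytic subunits, and for Psmg4 and Psmf1, the members at the ends of the range, which hold neither motif. Capitals mark TGACNNNGC. The stretches are from GRCm38.p6, at chr14:54617996-54618115 (minus strand) for Psmb5, chr11:70525237-70525356 (plus) for Psmb6, chr5:123228070-123228189 (plus) for Psmd9, chr13:34162844-34162963 (plus) for Psmg4 and chr2:151741311-151741430 (minus) for Psmf1.
Psmb5 promoter: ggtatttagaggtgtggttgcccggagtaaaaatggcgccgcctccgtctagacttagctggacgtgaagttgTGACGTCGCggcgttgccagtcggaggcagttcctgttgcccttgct
Psmb6 promoter: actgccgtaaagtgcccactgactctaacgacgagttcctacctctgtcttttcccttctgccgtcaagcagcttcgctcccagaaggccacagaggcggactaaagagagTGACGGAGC
Psmd9 promoter: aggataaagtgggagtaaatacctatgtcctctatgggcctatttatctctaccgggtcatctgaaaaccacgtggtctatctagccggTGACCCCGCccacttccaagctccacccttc
Psmg4 promoter: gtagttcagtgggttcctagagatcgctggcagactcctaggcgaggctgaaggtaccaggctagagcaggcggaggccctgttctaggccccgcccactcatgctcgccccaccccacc
Psmf1 promoter: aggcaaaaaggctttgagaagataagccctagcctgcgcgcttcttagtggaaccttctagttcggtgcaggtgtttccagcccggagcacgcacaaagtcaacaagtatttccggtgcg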

How the data were processed

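Scanner output was deposited for each of the 2 arrays, 1 for each cell line. The authors amplified and labelled RNA with cyanine 3, hybridised it to Agilent whole mouse genome arrays, and obtained spot intensity with Agilent Feature Extraction 9.5.1.1, already background-subtracted. In the authors' deposited log2 table, made in GeneSpring, signals had a floor of 1 and were divided by the 75th percentile of the array. Table and scanner output give the arrays to opposite lines.

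Of 44397 spots, 43020 were not controls, and 297 spots marked as outliers were left out (0 of members). Processed intensity was divided by the array's 75th percentile, put on a log2 scale and averaged over spots, then over the probes of a gene that were well above background on both arrays. Gene names are those of the scanner output. In RefSeq, used as an alternative, an accession named 26049 probes, the current symbol 3200 and a former symbol 930, 9250 kept their name, and all 54 member probes had the same name. Depth is not defined for arrays, and their number limits the precision. With 1 array for each line no test was made. Calls are 1.5-fold, with 2-fold as an alternative.

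Members and lists were chosen with earlier results of these data known. All members are described. Of 8 further lists, members at least 1.5-fold apart are named, at most 4 in each list by size, with the 5 immunoproteasome and PA28αβ genes. Nfe2l1, Adrm1, Shfm1, Pomp, Npepps, Mafg, Mafk, Nfyb and Nfyc are named beyond this rule, chosen after their values were seen. 1 marker gene is not reported here. Alternatives were the scaling, background correction (normexp, offset 50), filters, outlier spots, the rule over probes, the floor, the authors' table and RefSeq names. The steps were tested on simulated data. Python 3.11.15 with numpy 2.4.6, pandas 2.3.3 and matplotlib 3.10.9 was used, with R 4.3.3 and limma 3.58.1 for normexp and quantile normalization.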

Additional observations from a re-analysis of the deposited data

How the results depend on the processing

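Scaling set the absolute size of the shift. Scaled to the array median, the members had a median of 0.56. At least 1.5-fold higher on the A array were 21 of them (48.8%, against 27.8% of all genes). All genes then had a median of 0.27, with 4118 at least 1.5-fold higher on the A array and 1410 on the B array. With the 75th percentile of spots well above background, the member median was 0.19 and the median of all genes was −0.10. With this scaling 2 members (4.65%) were at least 1.5-fold higher on the A array, against 9.84% of all genes. Toward the B array there were 2 (4.65%), against 20.8%. With quantile normalization the member median was 0.19, with 2 at least 1.5-fold higher on the B array (4.65%, against 15.6% of all genes). With normexp the median of all genes was −0.067. The brightest probe of each gene gave a member median of 0.22. A looser filter on dim probes left 3958 genes at least 1.5-fold higher on the B array. Without a filter, 3390 genes were at least 1.5-fold higher on the A array and 5361 on the B array, with a median of −0.16 over all genes, since many dim probes then entered. At 2-fold, 1 member was higher on the A array and 0 on the B array, and of all genes 570 were higher on the A array and 1084 on the B array.

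The median of the activators and inhibitor (−0.07) became 0.22 with median scaling and 0.029 with quantile normalization, and the difference of Psmc3ip (0.07) became −0.013 with the percentile of spots well above background. Of the other class medians over the alternatives, 97 values moved by no more than the spread between repeat spots (0.046) and 32 by more. Of the values of single genes, 1037 moved by no more than this spread and 398 by more, and no gene at least 1.5-fold apart as reported changed its direction. Setting members at a bound gave no value, as no member was measured on 1 array only. No paired analysis was possible because each cell line has 1 array. The authors' table gave a member median of 0.29.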
